A study of Caenorhabditis elegans with 8 samples.

Results

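The nematode Caenorhabditis elegans carries a large set of genes that resemble Hedgehog and its receptor Patched, and 84 of them were found among the 20182 genes of the count table. They were chosen by their WormBase symbols, as every gene named wrt, grd, grl, hog, qua, ptr or ptc followed by a number. The Hedgehog-related side held 58 genes, of which 10 were wrt (warthog), 16 grd (ground), 30 grl (ground-like), 1 hog and 1 qua. The Patched-related side held 26 genes, of which 24 were ptr and 2 were ptc (ptc-1 and ptc-3). By position in the WBcel235 annotation of Ensembl, 31 members lay on chromosome V, 13 on IV, 13 on X, 11 on II, 9 on I and 7 on III.

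In insects and vertebrates, Hedgehog is a secreted protein that is cut from its own precursor, and Patched is the membrane protein that binds it. Worms lack a close counterpart of Hedgehog and of Smoothened, the membrane protein that passes the Hedgehog signal on elsewhere. The Hedgehog-related genes encode secreted proteins, some of which keep the self-cutting Hog domain, and the Patched-related genes encode proteins of many membrane spans with a sterol-sensing domain. In worms both groups are best known for work on the skin (hypodermis), the cuticle and the molt, and ptc-1 for cell division in the germline.

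The animals were young adults sampled whole, and total RNA was turned into ScriptSeq v2 libraries. Feeding on double-stranded RNA began with synchronized first-stage larvae. All 4 groups share that procedure, but the sample labels name no batch. The groups were glp-1 (e2141) with rege-1 RNAi, glp-1 (e2141) with mock RNAi, N2 (the laboratory wild type) with rege-1 RNAi, and N2 with mock RNAi, with 2 libraries in each. The glp-1 animals were kept at 25 °C, the temperature at which this Notch receptor allele loses function and the germline fails to form, and no temperature is given for N2, so strain and temperature cannot be told apart. REGE-1 is an RNase, and the series' title gives finding its targets as the aim. Nothing states that the libraries came from separate cultures, so each p-value measures only the spread between these libraries, which may be technical.

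Library totals lay between 26127079 and 30093967 coding counts, and the members together took from 0.160 to 0.175% of them. The targeted gene went against its label, with more counts in RNAi than in mock libraries. In glp-1, rege-1 had 1950 and 1891 counts under RNAi against 495 and 480 under mock. In N2 it had 2664 and 2137 counts under RNAi against 396 and 354 under mock. Its intron counts were higher with RNAi too (log2 change 3.18 in glp-1 and 7.91 in N2). Whether reads of the fed double-stranded RNA were counted was not tested, so these counts do not show whether RNAi lowered the gene. Germline genes were also not absent from the libraries labelled glp-1, where 16 germline and oocyte markers summed to 4536 and 4474 CPM (counts scaled to a fixed library total) under RNAi and 4226 and 4420 CPM under mock. The same markers summed to 6295 and 6030 CPM in N2 RNAi and 6276 and 4963 CPM in N2 mock. Below, RNAi, mock, glp-1 and N2 therefore stand for libraries so labelled. Within a group, the median difference between the 2 libraries was larger for the members than for all tested genes, from 0.19 to 0.32 against 0.10 to 0.25 on the log2 scale.

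**Figure D1:**
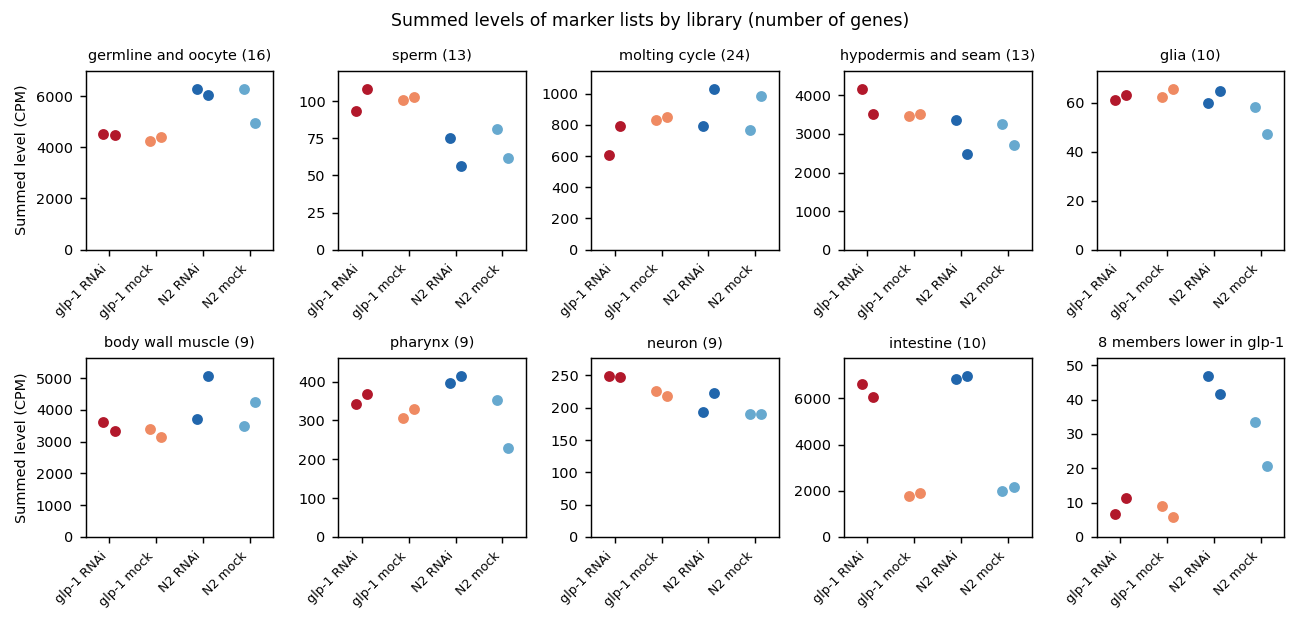
Summed level (CPM, vertical axis from 0) of each list of tissue markers in each of the 8 libraries, by group, with the number of genes in brackets and 1 point a library. The last panel sums 8 Hedgehog-related and Patched-related genes that were picked because they were lower in glp-1 under both treatments, so its pattern describes that choice; the germline and oocyte panel stays at 4226 CPM or above in every glp-1 library.

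Most members were rare transcripts in these whole animals. A count filter (about 0.350 CPM in at least 2 libraries) left 57 members for testing, which were 9 of the wrt, 11 of the grd, 10 of the grl, hog-1, qua-1, both ptc and 23 of the ptr genes. The other 27 were 20 grl, 5 grd, wrt-7 and ptr-9. Their highest count in any library was 12, for grl-27, which had 0 and 0 counts in glp-1 RNAi and 1 and 3 in glp-1 mock, against 5 and 8 in N2 RNAi and 12 and 7 in N2 mock. With no filter grl-27 and grl-23 were lower in glp-1 than in N2 under RNAi (edgeR adjusted p = 0.0219 and 0.0464). For grl-23 this rests on 0 and 0 counts in glp-1 RNAi against 5 and 7 in N2 RNAi. Neither gene passed under mock with no filter. No read was counted for grl-29 in any library. A few members passed the filter mainly through 1 strain, which favours a difference between strains in these genes. Of these wrt-8, grd-2, grd-6, grl-5, grl-7, grl-15 and ptr-19 passed through N2, and grd-16 passed through glp-1.

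The members that were abundant belonged to a few branches. Per kb of coding width and as a mean over the 8 libraries, grd-5 stood at 359.8 CPM, grd-3 at 333.3 and ptc-1 at 176.9, followed by grd-10 at 101.6 and ptr-2 at 66.4. Next came ptr-21 at 25.1, grd-14 at 24.2, grd-13 at 23.1 and grl-4 at 18.6 CPM per kb. The highest wrt gene, wrt-10, was at 17.5 CPM per kb and the next, wrt-3, at 10.5. The second ptc gene, ptc-3, which is essential in worms and acts in the balance of water and sterols, was at 13.0 CPM per kb. Among the 57 tested members the lowest were wrt-8, grd-16, grd-11, ptr-17 and ptr-19, between 0.245 and 0.111 CPM per kb. Counted in plain CPM, ptc-1 alone made up 43.8% of the summed level of all members.

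**Figure D2:**
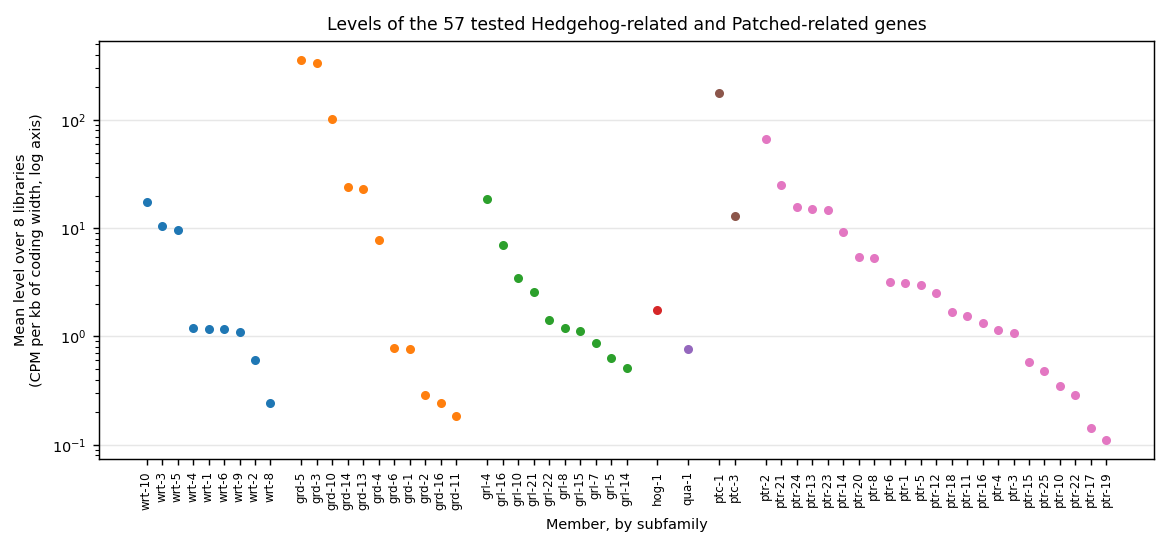
Mean level over the 8 libraries (CPM per kb of coding width, log axis) of each of the 57 members that passed the count filter, grouped by subfamily and ordered by level within it. A few grd genes, ptc-1 and ptr-2 lie above 60 CPM per kb, while most wrt, grl and ptr genes lie below 10.

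The Hedgehog-related and Patched-related sums had opposite orders over strains. The Hedgehog-related genes summed to 565.2 and 419.3 CPM in glp-1 RNAi and 446.4 and 440.8 CPM in glp-1 mock, against 431.4 and 370.2 CPM in N2 RNAi and 359.5 and 369.4 CPM in N2 mock. The Patched-related genes summed to 1034 and 1205 CPM in glp-1 RNAi and 1169 and 1191 CPM in glp-1 mock, against 1428 and 1538 CPM in N2 RNAi and 1447 and 1258 CPM in N2 mock. On this scale the strains did not overlap in the Patched-related sum under either treatment, nor in the Hedgehog-related sum under mock. They overlapped in the Hedgehog-related sum under RNAi. The overlap depended on the scale. With counts divided by the library total alone, the Patched-related sums overlapped under mock and the Hedgehog-related sums did not overlap under RNAi. The first sum is carried by grd-3, grd-5 and grd-10 and the second by ptc-1 and ptr-2, so neither describes most members.

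The first question was whether feeding on rege-1 double-stranded RNA moved these genes. In N2, 0 of the 57 tested members passed the threshold (edgeR quasi-likelihood test, Benjamini-Hochberg adjusted over all 15321 tested genes, adjusted p under 0.05), where 4.79% of all tested genes did (3.13% higher and 1.66% lower). Without adjustment 5 members were higher and 2 lower in edgeR at p under 0.05, and DESeq2 gave 1 higher and 0 lower with 0 past its adjusted threshold. The lowest adjusted p belonged to wrt-6, a warthog gene, with 3.53 and 3.41 CPM in N2 RNAi against 2.38 and 1.79 CPM in N2 mock (log2 change 0.73, SE 0.26, edgeR adjusted p = 0.212). These 4 libraries did not overlap. Changes ran between -0.56 for grd-4 and 1.09 for grd-2, with a median of 0.12 beside -0.01 over all genes. In 37 members the estimate was positive and in 20 negative.

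Several low-count Hedgehog-related genes had higher values in N2 RNAi that did not pass the test. The ground gene grd-2 had 1.40 and 2.35 CPM in N2 RNAi against 1.12 and 0.622 CPM in N2 mock (log2 change 1.09, 95% interval 0.14 to 2.04). The warthog gene wrt-4 had 5.12 and 3.85 CPM in N2 RNAi against 3.33 and 1.98 CPM in N2 mock (log2 change 0.75, interval 0.12 to 1.38). For qua-1, which is required for molting, the values were 4.21 and 5.36 CPM in N2 RNAi and 3.75 and 2.41 CPM in N2 mock (log2 change 0.63, interval 0.01 to 1.25). In each of these 3 genes both RNAi libraries lay above both mock libraries, as they did for 21 of the 57 members, and both lay below for 8, where the background was 19.4% and 21.8% of all tested genes. One library bears on the call of grd-6, whose log2 change of 0.73 (edgeR adjusted p = 0.441) became 1.56 (adjusted p = 0.0325) without the second N2 mock library.

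In glp-1, 0 of 57 members passed the same test of RNAi against mock, where 2.70% of all tested genes did (1.89% higher and 0.816% lower). At an unadjusted p under 0.05 edgeR had 2 members higher and 3 lower, and DESeq2 1 higher and 1 lower with 0 past its adjusted threshold. The lowest adjusted p was that of ptr-1, at 0.316. Estimates ran between -1.88 for wrt-8 and 1.59 for grl-5, both among the rarest tested members, and their median was 0.03. The count of wrt-8 was 0 and 5 in glp-1 RNAi against 17 and 4 in glp-1 mock, groups that overlap. Both RNAi libraries lay above both mock libraries for 11 members and below for 6, where the background was 23.4% and 21.8%. The ground gene grd-5, the highest per kb of coding width, had 173 and 121 CPM in glp-1 RNAi against 116 and 109 CPM in glp-1 mock (log2 change 0.39, SE 0.17, edgeR adjusted p = 0.458). Its 2 RNAi libraries lay above both mock libraries but far apart, and without the second RNAi library the change was 0.61 with an adjusted p of 0.0194.

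Both ptc genes gave narrow intervals for RNAi. For ptc-1 the log2 change was -0.12 in glp-1 (95% interval -0.48 to 0.24) and 0.17 in N2 (interval -0.19 to 0.53). For ptc-3 it was 0.17 in glp-1 (interval -0.10 to 0.43) and -0.04 in N2 (interval -0.30 to 0.23). Intervals within 1 log2 unit of 0 on both sides, which leave out a 2-fold change, were found for 38 of the 57 members in glp-1 and 31 in N2. For the other members a change of that size could not be left out at this depth. In hog-1, a gene that keeps the Hog domain without a known ligand domain, the interval was -0.71 to 0.80 in glp-1 and -1.35 to 0.31 in N2, and atat-2 overlaps it on the other strand.

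The change with RNAi was also compared between strains. No member passed the test of that difference (0 of 57), where 0.0261% of all tested genes did, and the lowest adjusted p among members was 0.869. At an unadjusted p under 0.05, 1 member had a higher and 2 a lower change in glp-1 than in N2. For grd-4 the log2 change was 0.24 in glp-1 and -0.56 in N2, a difference of 0.80 with an interval of 0.08 to 1.52 (edgeR adjusted p = 0.869).

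**Figure D3:**
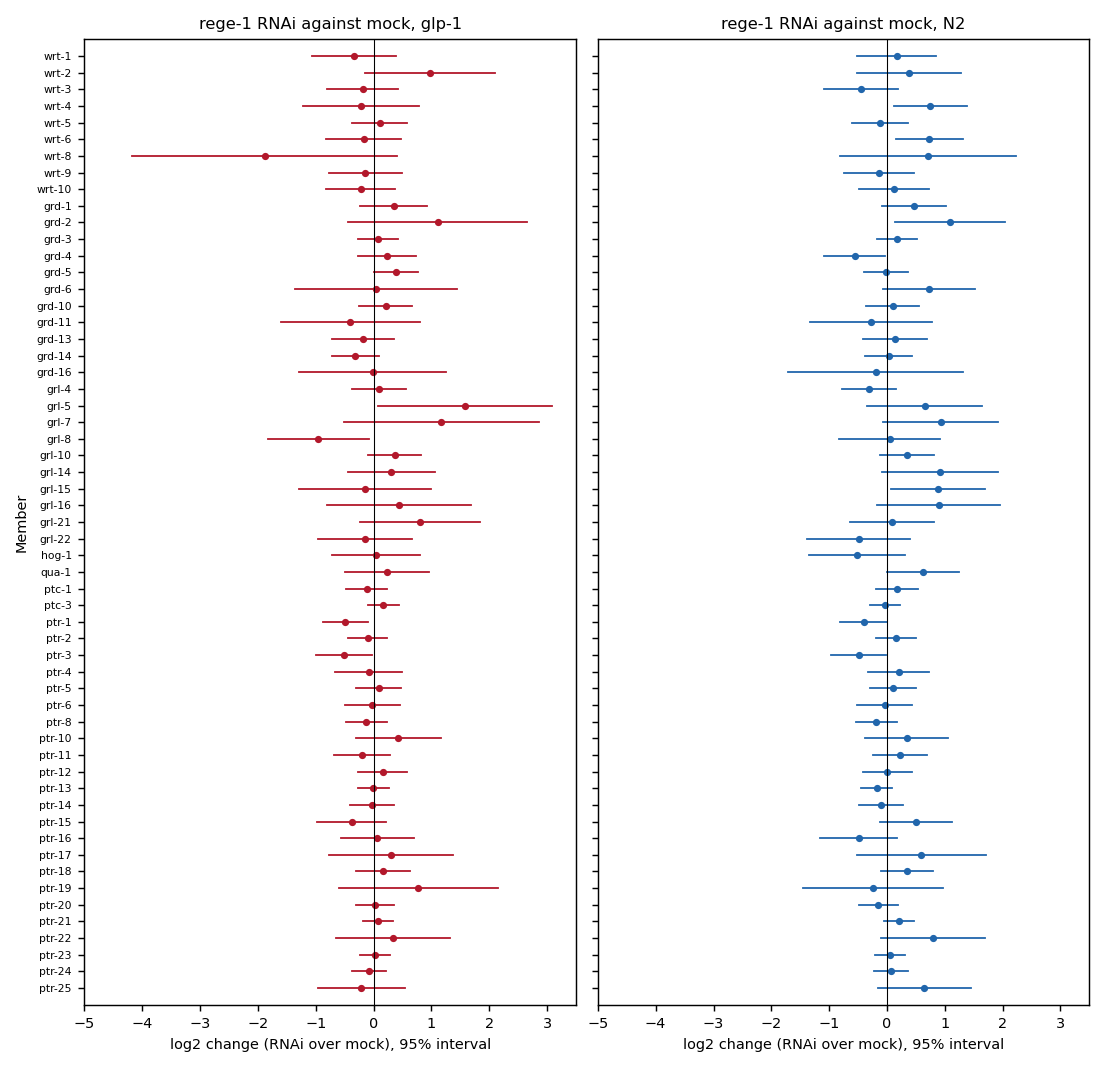
Log2 change of RNAi over mock (horizontal axis) with its 95% interval for each of the 57 tested members in glp-1 (left) and N2 (right), ordered by subfamily. No member passed the adjusted threshold in either strain, and the widest intervals belong to members with few counts such as wrt-8, grl-5 and grl-7.

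Calls between strains fell most of all on low-level Hedgehog-related genes that were lower in glp-1. Of these, grd-2, grd-6, grl-5, grl-7, grl-15 and wrt-8 passed the count filter mainly through N2, where they were higher. The shares below therefore describe the genes and do not test the family. Under mock, 10 of the 57 members passed the test (17.5%), where 9.73% of all tested genes did. By direction, 1 member was higher in glp-1 (background 6.49%) and 9 were lower (background 3.24%). Under RNAi, 17 of 57 passed (29.8%), where 18.1% of all tested genes did, with 3 members higher (background 10.6%) and 14 lower (background 7.54%). The median log2 change of the 57 was -0.12 under mock and -0.23 under RNAi, beside 0.00 and 0.02 over all tested genes. Both glp-1 libraries lay above both N2 libraries for 15 members under mock and 16 under RNAi (backgrounds 32.6% and 32.2%), and below for 23 and 26 (backgrounds 30.3% and 29.3%). The split by direction depended on the scale. Library size alone gave 2 higher and 8 lower under mock and 8 higher and 10 lower under RNAi. Size factors from somatic genes, mostly of body wall muscle by level, gave 4 higher and 9 lower under mock. Under RNAi they gave 7 higher and 11 lower. In whole animals, fewer cells of a type and less RNA per cell cannot be told apart. The mock and RNAi comparisons rest on separate libraries.

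Lower in glp-1 under both treatments were wrt-4, grd-2, grd-6, grl-7, grl-16, grl-21, qua-1 and ptr-4. They are 88.9% of the members lower under mock and 57.1% of those lower under RNAi. The matching shares over all tested genes were not computed, so these shares do not set the members apart. Of the Hedgehog-related genes 8 of 32 tested were lower under mock and 10 under RNAi, and of the Patched-related genes 1 of 25 under mock and 4 under RNAi. Since grd-2, grd-6, grl-7, grl-5, grl-15 and wrt-8 passed the filter through N2, these counts describe the genes and do not test the family. Most of the members called here averaged under 5 CPM in both strains and are named with their values known.

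**Figure D4:**
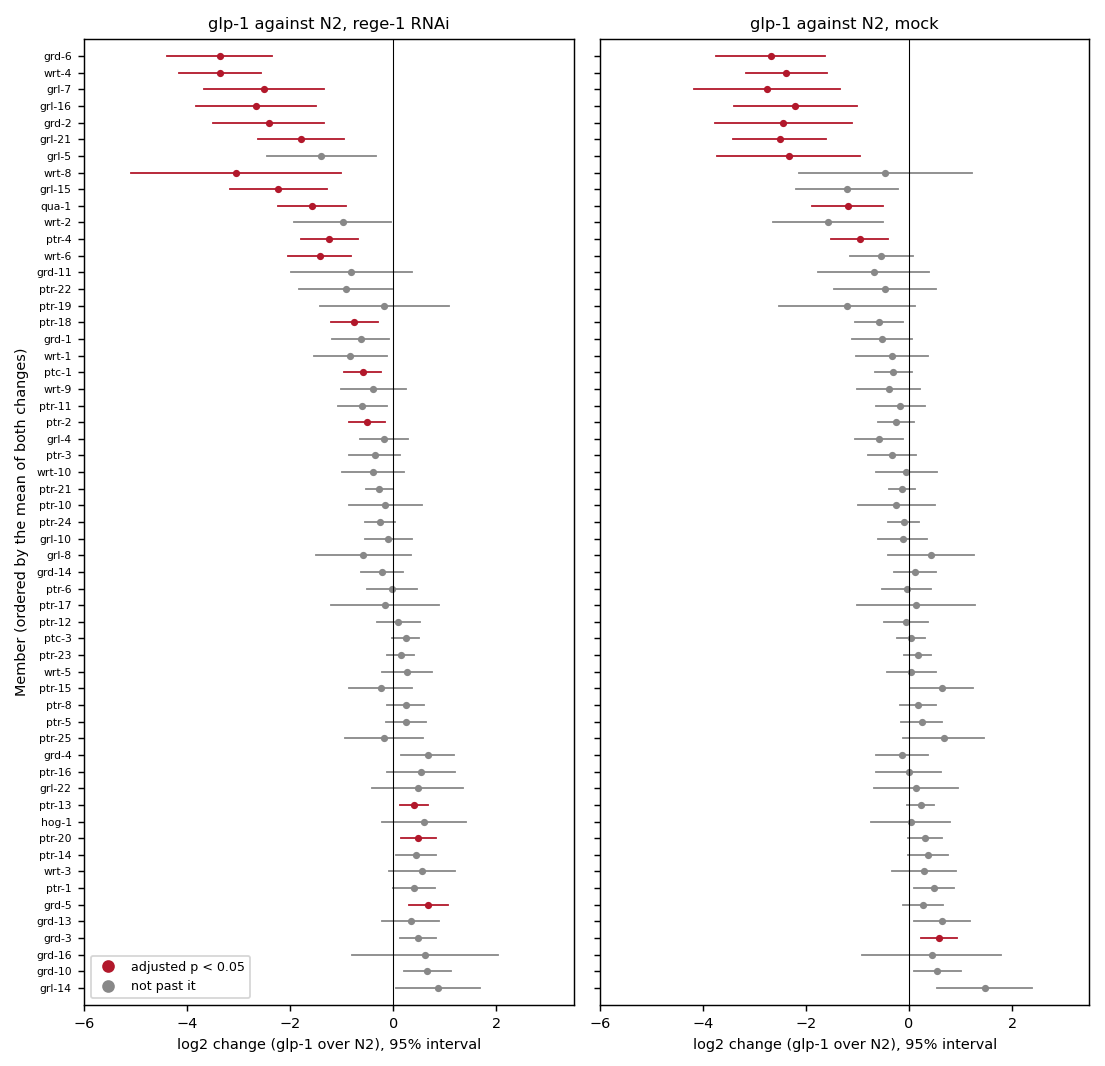
Log2 change of glp-1 over N2 (horizontal axis) with its 95% interval for each of the 57 tested members under RNAi (left) and mock (right), ordered by the mean of both; red marks an adjusted p under 0.05. The members lower in glp-1 reach -3.37, while those higher in glp-1 with an adjusted p under 0.05 lie between 0.40 and 0.67.

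Among the warthog genes, wrt-4 (WBGene00006950, chromosome X from 15752257 to 15757269, minus strand) was the clearest. It had 0.348 and 0.518 CPM in glp-1 RNAi against 5.12 and 3.85 CPM in N2 RNAi, and 0.589 and 0.422 CPM in glp-1 mock against 3.33 and 1.98 CPM in N2 mock. In each treatment both glp-1 libraries lay well below both N2 libraries. The log2 change was -3.36 (SE 0.36, edgeR adjusted p = 0.000148) under RNAi and -2.39 (SE 0.36, adjusted p = 0.00172) under mock, which are levels 10.3 and 5.23 times lower in glp-1. The strain difference of wrt-6 was called under RNAi, with 1.15 and 1.42 CPM in glp-1 against 3.53 and 3.41 CPM in N2 (log2 change -1.43, SE 0.28, adjusted p = 0.00763). Under mock wrt-6 had 1.74 and 1.14 CPM in glp-1 against 2.38 and 1.79 CPM in N2, which did not pass (log2 change -0.54, adjusted p = 0.251), and the difference between these changes did not pass either (adjusted p = 0.869). The call of wrt-8 under RNAi rests on 0 and 5 counts in glp-1 against 27 and 13 in N2 (log2 change -3.05, SE 0.93, adjusted p = 0.0432). It was lost without either N2 RNAi library (adjusted p = 0.182 and 0.0986) or without the first glp-1 RNAi library (0.191), and with library size alone (0.0508) or the compared groups alone (0.0714).

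The 3 warthog genes with the highest levels, wrt-10, wrt-3 and wrt-5, did not pass. The level of wrt-10 was 13.3 and 9.91 CPM in glp-1 RNAi and 12.6 and 14.5 CPM in glp-1 mock, against 12.1 and 18.4 CPM in N2 RNAi and 10.3 and 17.8 CPM in N2 mock, so that strains overlapped under both treatments. For wrt-3 there were 187 and 162 counts in glp-1 RNAi against 143 and 78 in N2 RNAi, with no overlap (log2 change 0.55, adjusted p = 0.20), and 7.04 and 6.72 CPM in glp-1 mock against 6.76 and 4.47 CPM in N2 mock (log2 change 0.29). Without the first N2 RNAi library the RNAi difference of wrt-3 was 1.07 (adjusted p = 0.0401). The level of wrt-5, a gene needed for the growth of embryos and larvae, was 7.51 and 5.08 CPM in glp-1 RNAi and 5.58 and 6.10 CPM in glp-1 mock, against 5.35 and 5.14 CPM in N2 RNAi and 6.06 and 5.29 CPM in N2 mock. The interval of its strain difference was -0.21 to 0.74 under RNAi and -0.43 to 0.52 under mock. For wrt-2 the strains did not overlap, with 0.341 and 0.325 CPM in glp-1 mock against 1.44 and 0.544 CPM in N2 mock, yet the difference missed the threshold (log2 change -1.58, edgeR adjusted p = 0.064). It passed with somatic size factors (0.0447), the replicate block (0.0464), a trend with coding length taken out (0.0495) and without the second N2 mock library (log2 change -2.10, adjusted p = 0.0204). The gene pccb-1 overlaps wrt-2 on the other strand.

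Among the ground genes, the rare grd-6 and grd-2 were lower in glp-1 under both treatments. The gene grd-6 (WBGene00001695, chromosome V from 9221866 to 9224354, plus strand) had 0.278 and 0.276 CPM in glp-1 RNAi against 2.84 and 2.97 CPM in N2 RNAi, and 0.248 and 0.292 CPM in glp-1 mock against 0.981 and 2.57 CPM in N2 mock. All 4 glp-1 libraries held 8 or 9 counts of it. The log2 change was -3.37 (SE 0.47, edgeR adjusted p = 0.000985) under RNAi and -2.68 (SE 0.48, adjusted p = 0.00548) under mock. The mock call was lost without the first glp-1 mock library (adjusted p = 0.0574). The gene grd-2 (chromosome V from 20609794 to 20613929) had 0.243 and 0.449 CPM in glp-1 RNAi against 1.40 and 2.35 CPM in N2 RNAi, and 0.248 and 0.0649 CPM in glp-1 mock against 1.12 and 0.622 CPM in N2 mock. Its log2 change was -2.42 (adjusted p = 0.00977) under RNAi and -2.44 (adjusted p = 0.0295) under mock. The mock call of grd-2 was lost without the first N2 (adjusted p = 0.199), the second N2 (0.051) or the second glp-1 library (0.215), and its RNAi call without the second N2 (0.103) or the first glp-1 library (0.0639).

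Of the ground-like genes, grl-16, grl-21 and grl-7 were lower in glp-1 under both treatments. The most abundant of them, grl-16 (WBGene00001725, chromosome I from 572173 to 575120, minus strand), had 1.74 and 4.91 CPM in glp-1 RNAi against 24.7 and 17.4 CPM in N2 RNAi, and 3.78 and 1.10 CPM in glp-1 mock against 15.1 and 7.51 CPM in N2 mock. The libraries of a group lay far apart, the strains did not overlap, and the log2 change was -2.66 (SE 0.53, edgeR adjusted p = 0.00883) under RNAi and -2.21 (SE 0.54, adjusted p = 0.027) under mock. The gene grl-21 (chromosome IV from 10737474 to 10738191), reported in worms to act through PTR-24 on mitochondria and fat storage, had 0.695 and 0.587 CPM in glp-1 RNAi against 1.67 and 2.79 CPM in N2 RNAi, and 0.341 and 0.390 CPM in glp-1 mock against 2.66 and 1.52 CPM in N2 mock. Its log2 change was -1.79 (adjusted p = 0.0115) under RNAi and -2.51 (adjusted p = 0.00303) under mock. The gene grl-7, whose protein PTR-18 is reported to clear in first-stage larvae, had 4 and 17 counts in glp-1 RNAi against 57 and 55 in N2 RNAi, and 2 and 8 in glp-1 mock against 40 and 20 in N2 mock (log2 change -2.51 under RNAi and -2.75 under mock, adjusted p = 0.0115 and 0.0226).

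Several of these calls were lost with 1 library left out. Such a fit leaves 1 library in a group, so a lost call does not show that the library decided it. Without the second N2 library the log2 change of grl-7 under RNAi was -2.56, near that of the full fit. Without the first N2 library that of grl-16 under mock was -1.61, a smaller difference. The mock call of grl-16 was lost without the first N2 (adjusted p = 0.211) or the second glp-1 library (0.177), with DESeq2 (0.0612) and with no filter (0.127), and its RNAi call without the first glp-1 library (0.11). For grl-7 the mock call was lost without the first N2 (0.168) or the first glp-1 library (0.201), and the RNAi call without the second N2 (0.0641) or the first glp-1 library (0.0622). The RNAi call of grl-21 was lost without the second N2 library (0.123), while its mock call kept an adjusted p under 0.05 without any 1 of the 4 libraries compared.

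Of the grl genes called under 1 treatment, grl-5 had 5 and 1 counts in glp-1 mock against 14 and 13 in N2 mock (log2 change -2.34, edgeR adjusted p = 0.0405). Under RNAi it had 6 and 11 counts in glp-1 against 19 and 23 in N2 (log2 change -1.40, adjusted p = 0.0669), which passed with a trend over coding length taken out (0.0479). Its mock call was lost whichever of the 4 libraries was left out (adjusted p = 0.068 to 0.291) and with DESeq2 (0.0748). For grl-15 there were 5 and 9 counts in glp-1 RNAi against 32 and 30 in N2 RNAi (log2 change -2.23, adjusted p = 0.00726), and 11 and 6 in glp-1 mock against 18 and 16 in N2 mock (log2 change -1.21, adjusted p = 0.114). The gene Y75B8A.19 overlaps grl-15 on the other strand, and its RNAi call was lost without the first glp-1 library (0.0512). The ground-like gene grl-14 had the highest estimate of any member in the strain comparisons, with 29 and 23 counts in glp-1 mock against 9 and 7 in N2 mock, and missed the threshold (log2 change 1.47, adjusted p = 0.0502). It passed with library size alone (0.0313), somatic size factors (0.0238), no filter (0.0456), the compared groups alone (0.041), limma (0.0266) and a trend with coding length taken out (0.0448).

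The molting gene qua-1 (WBGene00004264, chromosome II from 8198803 to 8204004, plus strand) had 34 and 58 counts in glp-1 RNAi against 111 and 146 in N2 RNAi, and 41 and 44 counts in glp-1 mock against 107 and 62 in N2 mock. The strains did not overlap under either treatment, and the log2 change was -1.58 (SE 0.30, edgeR adjusted p = 0.0071) under RNAi and -1.19 (SE 0.31, adjusted p = 0.0356) under mock. Its mock call was lost without the first N2 (adjusted p = 0.234), the first glp-1 (0.247) or the second glp-1 library (0.165) and with limma (0.0544), and its RNAi call without the second N2 library (0.068). In contrast to qua-1, hog-1 had 1.43 and 0.898 CPM in glp-1 RNAi against 0.910 and 0.624 CPM in N2 RNAi, and 1.18 and 1.07 CPM in glp-1 mock against 1.33 and 0.856 CPM in N2 mock, so that its strains overlapped under both treatments.

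**Figure D5:**
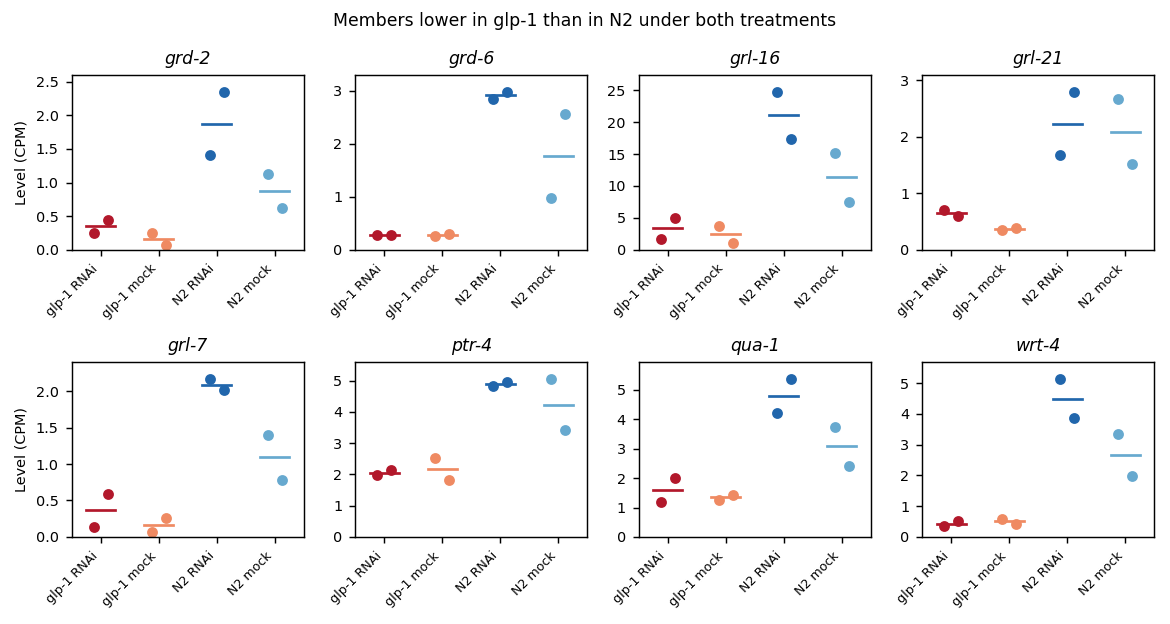
Level (CPM, vertical axis from 0) in each library (points) and group mean (bars) for the 8 members that were lower in glp-1 than in N2 under both treatments. In each panel every glp-1 library lies below every N2 library, and the panels show members picked for that difference.

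Among the abundant ground genes, grd-3 and grd-5 were each higher in glp-1 under 1 of the treatments. The gene grd-3 (WBGene00001692, chromosome IV from 3439655 to 3440453, plus strand) had 208 and 210 CPM in glp-1 mock against 135 and 146 CPM in N2 mock (log2 change 0.57, SE 0.16, edgeR adjusted p = 0.0455). Under RNAi it had 252 and 188 CPM in glp-1 against 171 and 147 CPM in N2, an estimate that did not pass (log2 change 0.47, adjusted p = 0.0612). The RNAi difference of grd-3 passed with library size alone (0.0213), somatic size factors (0.0349), limma (0.0224) and without the second glp-1 library (0.00405). The gene grd-5 (WBGene00001694, chromosome V from 8619032 to 8619870) had 173 and 121 CPM in glp-1 RNAi against 102 and 82.0 CPM in N2 RNAi (log2 change 0.67, SE 0.17, adjusted p = 0.0243), and 116 and 109 CPM in glp-1 mock against 93.0 and 93.0 CPM in N2 mock (log2 change 0.27, adjusted p = 0.348). These calls are near the threshold. The mock call of grd-3 was lost whichever of the 4 libraries was left out (adjusted p = 0.114 to 0.243), and the RNAi call of grd-5 without the second N2 (0.217) or the first glp-1 library (0.102), with the compared groups alone (0.0911) and once a trend with coding length was taken out (0.0937).

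The gene grd-3 lies in a run of ground genes on the plus strand of chromosome IV, with grd-13 (3438312 to 3439507) before it and grd-10 (3441055 to 3441841) after it. For grd-10 the level was 50.4 and 30.7 CPM in glp-1 RNAi against 28.8 and 22.8 CPM in N2 RNAi, and 35.1 and 35.1 CPM in glp-1 mock against 24.8 and 23.3 CPM in N2 mock. The strains did not overlap, and the differences missed the threshold (log2 change 0.65 under RNAi and 0.55 under mock, edgeR adjusted p = 0.0509 and 0.124). Of the 13 alternatives 7 called grd-10 under RNAi, which were library size alone (adjusted p = 0.0234), somatic size factors (0.00429), no filter (0.0433), the replicate block (0.0271), DESeq2 (0.0314), limma (0.0284) and the second glp-1 library left out (0.00249). Under mock somatic size factors (0.0338) and the compared groups alone (0.0162) called it. For grd-13 it was 13.2 and 10.7 CPM in glp-1 RNAi against 12.1 and 6.83 CPM in N2 RNAi, which overlap, and 12.7 and 14.3 CPM in glp-1 mock against 7.85 and 9.45 CPM in N2 mock, which do not (log2 change 0.33 and 0.64, adjusted p = 0.364 and 0.13). It passed under mock with somatic size factors (0.0303) and the compared groups alone (0.031), and under RNAi without the first N2 library (0.0478).

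Fewer Patched-related genes were called between strains. The gene ptr-4, which acts in the cuticle and at the molt, was the only one called under both treatments (WBGene00004219, chromosome X from 6060758 to 6065986, minus strand). It had 1.98 and 2.14 CPM in glp-1 RNAi against 4.82 and 4.95 CPM in N2 RNAi, and 2.54 and 1.82 CPM in glp-1 mock against 5.05 and 3.42 CPM in N2 mock. The log2 change was -1.24 (SE 0.25, edgeR adjusted p = 0.00977) under RNAi and -0.96 (SE 0.25, adjusted p = 0.0364) under mock, with no overlap between strains. Its mock call was lost without the first N2 (adjusted p = 0.222), the first glp-1 (0.0927) or the second glp-1 library (0.316), with library size alone as the scale (0.0579), somatic size factors (0.104), the compared groups alone (0.0516) and limma (0.0619). Its RNAi call was lost without the second N2 (0.0654) or the first glp-1 library (0.0536).

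The main Patched-related gene by level was ptc-1 (WBGene00004208, chromosome II from 7893222 to 7900515, plus strand). It had 526 and 684 CPM in glp-1 RNAi against 865 and 966 CPM in N2 RNAi (log2 change -0.60, SE 0.17, edgeR adjusted p = 0.0311). Under mock it had 651 and 665 CPM in glp-1 against 879 and 746 CPM in N2 (log2 change -0.30, SE 0.16, adjusted p = 0.268). The groups did not overlap under either treatment. The RNAi call depended on the scale: with library size alone it was -0.44 (adjusted p = 0.0721), and with size factors from somatic genes -0.31 (adjusted p = 0.456). It was also lost without either N2 RNAi library (adjusted p = 0.0536 and 0.20) or without the first glp-1 RNAi library (0.0914), with limma (0.0653), with the compared groups alone (0.0999) and once a trend with coding length was taken out (0.272). Beside it, the germline and oocyte list had 6 of 16 genes lower in glp-1 under RNAi (median log2 change -0.45, background 7.54%). Under mock 3 of 16 were lower (median -0.30, background 3.24%). The part of the germline in the ptc-1 difference was not tested.

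The other calls among Patched-related genes were small and near the threshold. The gene ptr-2 had 147 and 164 CPM in glp-1 RNAi against 216 and 227 CPM in N2 RNAi (log2 change -0.51, edgeR adjusted p = 0.0437), and ptr-18 had 3.27 and 3.87 CPM against 5.35 and 6.72 CPM (log2 change -0.76, adjusted p = 0.0303). Higher in glp-1 RNAi were ptr-13, with 41.9 and 42.6 CPM against 30.9 and 33.3 CPM in N2 RNAi (log2 change 0.40, adjusted p = 0.0454), and ptr-20, with 461 and 467 counts against 307 and 310 (log2 change 0.48, adjusted p = 0.0499). Each of these 4 genes had no overlap between strains. The calls of ptr-2 and ptr-18 ended with library size alone (adjusted p = 0.115 and 0.0608), somatic size factors (0.592 and 0.327), limma (0.11 and 0.063) and the length trend removed (0.244 and 0.0936). Those of ptr-13 and ptr-20 ended with relative log expression size factors (0.0593 and 0.0591), no filter (0.0576 and 0.0626), a replicate block (0.0557 and 0.0616) and DESeq2 (0.0873 and 0.0715). With the compared groups alone all 4 ended (adjusted p = 0.0927 to 0.135). Leaving out the second N2 RNAi library ended all 4 calls (adjusted p = 0.228 for ptr-2, 0.206 for ptr-18, 0.151 for ptr-13 and 0.203 for ptr-20). So did leaving out the first glp-1 RNAi library (0.115, 0.133, 0.0814 and 0.105 in the same order). In addition ptr-2, ptr-13 and ptr-20 lost their calls without the first N2 RNAi library (0.0944, 0.162 and 0.0995), and ptr-13 and ptr-20 without the second glp-1 RNAi library (0.0531 and 0.0669).

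Several abundant Patched-related genes had narrow intervals around 0 between strains. For ptc-3 the level was 64.1 and 56.5 CPM in glp-1 RNAi against 49.2 and 53.1 CPM in N2 RNAi, and 52.6 and 54.8 CPM in glp-1 mock against 51.9 and 52.9 CPM in N2 mock. Its log2 change was 0.24 (interval -0.03 to 0.50) under RNAi and 0.04 (interval -0.23 to 0.30) under mock, and the RNAi difference passed the test with library size alone (0.40, adjusted p = 0.039), limma (0.40, adjusted p = 0.0438) and the length trend removed (0.67, adjusted p = 0.0154). For ptr-24 the log2 change was -0.26 (interval -0.55 to 0.03) under RNAi and -0.11 (interval -0.40 to 0.18) under mock, in the same libraries in which grl-21 was lower. For ptr-23 it was 0.14 (interval -0.12 to 0.40) under RNAi and 0.16 (interval -0.09 to 0.42) under mock, and the RNAi difference was 0.44 (adjusted p = 0.0382) once a trend with coding length was taken out. Uncalled as well, ptr-14 passed under RNAi in 5 alternatives and grd-4 in 4, both higher in glp-1.

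Genes that act beside these families were examined for comparison. Of 13 other genes of the pathway, among them tra-1 (the worm's Gli-like factor), the Patched-like genes che-14 and daf-6, the sterol transporters ncr-1 and ncr-2, and the acyltransferase-like genes hhat-1 and hhat-2, 0 passed in any comparison. In the strain comparisons 18.1% of all tested genes passed under RNAi and 9.73% under mock, so 0 of 13 is a weak result. The medians of the 13 genes there were -0.24 under RNAi and 0.01 under mock. The lowest adjusted p in the list was that of tra-2 under RNAi, at 0.0548 (log2 change -0.55).

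Some molting genes were lower in glp-1 too. Of 23 tested, 7 were lower and 0 higher in glp-1 under RNAi (median log2 change -0.59), where 7.54% of all tested genes were lower and 10.6% higher. Under mock 4 were lower and 0 higher (median -0.25), where 3.24% of all tested genes were lower and 6.49% higher. The collagen gene bli-2 had 0.661 and 1.76 CPM in glp-1 RNAi against 6.71 and 7.85 CPM in N2 RNAi, and 0.868 and 0.422 CPM in glp-1 mock against 5.92 and 3.34 CPM in N2 mock (log2 change -2.58 and -2.83, edgeR adjusted p = 0.00254 and 0.00242). Also lower under both treatments were bli-1, another collagen gene, acn-1 and mlt-10. Not all skin genes did so: of 12 tested hypodermis and seam genes, 1 was higher and 2 lower in glp-1 under RNAi, and 1 was higher and 1 lower under mock. The collagen gene rol-6 was lower under both (log2 change -2.33 and -2.59), dpy-5 was higher under both (1.45 and 1.79), and col-19, which marks the adult skin, had 0.40 and 0.22 and did not pass (adjusted p = 0.152 and 0.505).

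The summed level of the 13 hypodermis and seam genes was 4178 and 3513 CPM in glp-1 RNAi and 3461 and 3530 CPM in glp-1 mock, against 3365 and 2476 CPM in N2 RNAi and 3255 and 2702 CPM in N2 mock. The 8 members lower under both treatments summed to 6.61 and 11.5 CPM in glp-1 RNAi and 9.08 and 5.78 CPM in glp-1 mock, against 47.0 and 41.7 CPM in N2 RNAi and 33.4 and 20.8 CPM in N2 mock. The 8 members were picked for being lower, and the part of skin cell number in their difference was not tested. The 24 molting genes summed to 607.9 and 792.8 CPM in glp-1 RNAi and 830.2 and 848.9 CPM in glp-1 mock, against 790.4 and 1034 CPM in N2 RNAi and 766.2 and 984.5 CPM in N2 mock, and these strains overlapped under both treatments. The part of the molting stage of the animals in the strain differences was not tested. None of 8 tested glia genes passed between strains, and the sperm list was higher in glp-1 in 3 of 9 genes under RNAi and 2 of 9 under mock. Of body wall muscle genes 1 was higher and 2 lower of 9 under RNAi, with 0 and 1 under mock. Of pharynx genes 1 of 8 was higher under each treatment, and of neuron genes 1 of 9 was higher under RNAi and 2 under mock. Over all tested genes 10.6% were higher and 7.54% lower under RNAi, and 6.49% and 3.24% under mock. Counts of 0 or 1 in lists this short therefore say little about a tissue.

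With RNAi, 5 of 10 intestine genes were higher and 1 lower in each strain (median log2 change 0.53 in glp-1 and 0.76 in N2), and between strains 1 was higher and 1 lower under each treatment. The members named here gave no such call, and the lists of molting, skin, glia, muscle, pharynx, neuron, germline and sperm genes had 0 calls with RNAi in either strain. Of all tested genes 2.70% passed in glp-1 and 4.79% in N2, so 0 calls in lists this short say little about a tissue.

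Intron counts, which come largely from transcripts not yet spliced, could be tested for 11 members, which were ptc-1, ptc-3, wrt-9 and 8 ptr genes. In glp-1 against N2, 0 of 11 passed under RNAi and under mock (backgrounds 0.516% and 0.417% of 5042 genes). At an unadjusted p under 0.05 there were 2 and 4, with lowest edgeR adjusted p-values of 0.407 and 0.0598. All of these had higher estimates in glp-1. Under RNAi they were ptr-14 and ptr-13 (log2 change 1.07 and 0.91). Under mock they were ptr-14, ptr-5, ptc-3 and ptr-8 (2.13, 1.88, 1.43 and 1.27). With RNAi against mock 0 of 11 passed in glp-1 and in N2 (backgrounds 0.694% and 1.07%), with 1 and 0 at an unadjusted p under 0.05, and in the difference between strains 0 of 11 passed as well (background 0.0198%). None of the low-level Hedgehog-related genes that were lower in glp-1 had enough intron counts to be tested.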

How the data were processed

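Total RNA of whole young adult worms was sequenced in 8 libraries (4 groups of 2). The authors deposited raw counts per gene for coding sequence and for introns, and log2 values that match, when checked, coding counts brought to the mean total with 8 added. No aligner, build or use of strand is given in the sources used here, so the 28 members whose exons overlap a gene on the other strand, and 3 with one on the same strand, may share its counts. Width, a multiple of 3 for 96.6% of genes, is taken as coding width.

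Counts were fitted in edgeR 4.0.16 (R 4.3.3) with the 4 groups in 1 model, filterByExpr at a minimum count of 10, TMM scaling and the robust quasi-likelihood F test (two-sided), adjusted over all 15321 tested genes at 0.05. CPM are TMM-scaled, and SE and 95% intervals come from the same test. Alternatives were relative log expression size factors, library size alone, size factors from somatic marker genes, no filter, a replicate block, the compared groups alone, DESeq2 1.42.0, limma 3.58.1 on the deposited log2 values, removal of a trend over coding length, and each library left out. The somatic size factors came from the sum of the body wall muscle, pharynx and neuron lists. In N2 mock these lists averaged 3874, 289.6 and 190.1 CPM, so body wall muscle dominated the sum. The muscle sum was itself lower in glp-1, at 0.843 of N2 under mock and 0.791 under RNAi, so this scale is not neutral between strains. Named genes were to average at least 5 CPM in the higher group, beside the 2 highest of each subfamily. Called members below that level are also named, after their values were seen. The members and lists were chosen with earlier results of these data known. The fits were tested on simulated data, where false calls exceeded the threshold in some comparisons. Groups of 2 allow no outlier test.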

Additional observations from a re-analysis of the deposited data

How the results depend on the processing

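Of members, 1 was higher and 9 lower in glp-1 than in N2 under mock, and 3 were higher and 14 lower under RNAi. Leaving out 1 library gave 3 to 8 lower and 0 higher under mock, and 5 to 14 lower and 0 to 4 higher under RNAi. With RNAi against mock it gave 0 to 1 higher in each strain. The higher count under mock was 2 with library size alone, limma, no filter and the length trend removed, and 4 with somatic size factors and the compared groups alone. Under RNAi it was 8 with library size alone and limma, 7 with somatic size factors and the length trend removed, 1 with relative log expression size factors and 0 with the compared groups alone. The causes were not tested. No result reversed, and RNAi called 0 members under every alternative that kept all libraries. The strain calls of wrt-4 held in each of 13 alternatives under both treatments.

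Replicate numbers were shared across groups, but the correlation of same-numbered deviations lay between -0.114 and 0.169, so they do not pair the libraries. With the replicate block 1 member was higher and 10 lower under mock, 2 and 14 under RNAi, and 0 with RNAi in either strain.

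Over all genes, library size alone moved the median strain difference by 0.16 under RNAi and 0.131 under mock, somatic size factors by 0.271 and 0.189, and limma by 0.143 and 0.127. Somatic size factors moved that of RNAi in N2 by -0.185. Counts over all genes moved as well. With 1 library left out, the 1619 genes higher in glp-1 under RNAi became as few as 382 and the 1155 lower became 146 to 2253, while under mock the 995 higher became 380 to 502 and the 496 lower 74 to 297. Under RNAi 599 were higher and 273 lower with the compared groups alone, 2638 and 227 with somatic size factors, 2610 and 548 with library size alone, and 2651 and 576 with limma. Under mock 982 were lower with the compared groups alone, 189 with somatic size factors, 269 with library size alone and 268 with limma, which gave 1521 higher. With RNAi in N2, 480 higher became 288 and 254 lower became 109 to 157 with a library left out. With RNAi in glp-1, 289 higher became 143 and 150, and 125 lower became 45 to 65 or, without the second RNAi library, 1104. In the difference between strains, 0 higher and 4 lower became up to 28 and 377 without that library and 11 and 19 with DESeq2. Depth limits the 27 members below the filter, and the rarest tested members have intervals wide enough to hold a 2-fold change.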
